A study of Mus musculus with 10 samples.

Results

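The genes that load peptides onto MHC class I were compared across tuft cells and other epithelial cells of the mouse. The 10 genes are B2m, H2-K1, H2-D1, Tap1, Tap2, Tapbp, Nlrc5, Psmb8, Psmb9 and Psmb10. They were chosen by symbol as the core of the pathway, through a GRCm38 annotation of the Ensembl identifiers. All 10 were found among the 43432 gene identifiers counted, and all 10 passed the filter on low counts, as 19281 genes did. Poly(A) RNA was sequenced from sorted cells of naive male mice of strain C57BL6.Il25(Flare25/Flare25), aged 12 weeks, and every group carried this homozygous fluorescent reporter of Il25. The SI epithelium group (n = 3) held DAPI-, CD45-, EPCAM+, Flare25- cells of the small intestine (SI). The SI tuft group (n = 3) and the thymic tuft group (n = 4) were DAPI-, CD45-, EPCAM+, Flare25+ cells of the small intestine and the thymus. Each library came from 1 mouse, so replicates are separate animals. Tuft cells are rare chemosensory epithelial cells, and the gate finds those in which the Il25 reporter is bright enough to see. The intestine was dissociated with DTT and EDTA and the thymus by enzyme digestion, and 35000 to 57000 intestinal but 1350 to 1900 thymic cells were sorted, so that organ, dissociation and cell number cannot be told apart.

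MHC class I molecules show peptides from inside a cell to CD8 T cells. Proteasomes cut proteins into peptides, the TAP transporter carries the peptides into the endoplasmic reticulum, and a loading complex places them on a heavy chain paired with beta-2 microglobulin. In the immunoproteasome 3 catalytic subunits replace those of the constitutive proteasome and alter which peptides are made. NLRC5 is a transactivator that reaches class I promoters through a composite element bound by the RFX complex, CREB and ATF proteins and NF-Y, and interferon signalling and NF-kB also act on these genes. Intestinal epithelium additionally makes nonclassical class I molecules that intraepithelial lymphocytes can bind, and in the thymus class I on epithelial cells takes part in the selection of CD8 T cells.

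The promoter sequences below are shown because B2m, H2-K1 and H2-Q7 were higher in thymic tuft cells than in both intestinal groups, whereas Psmb10 and the nonclassical heavy chains H2-Q2 and H2-T3 were lower. They are RefSeq sequences (GRCm38.p6), written 5′ to 3′ along the gene's strand. The windows searched held the 250 bases before the start of transcription, of which only the stretch outside annotated exons is printed. Capitals mark matches on either strand to GAANNGAAA or GAAANNGAAA (letters like those of interferon-response elements), GGGANTNNCC (like NF-kB sites), TGACG (the core of CREB and ATF sites) and CCAAT (the core of NF-Y sites). The stretches are chr2:122147437-122147685 (plus strand) for B2m, chr17:34000348-34000597 (minus strand) for H2-K1, chr17:35438905-35439154 (plus strand) for H2-Q7, chr17:35342057-35342241 (plus strand) for H2-Q2, chr17:36190288-36190401 (minus strand) for H2-T3 and chr8:105938445-105938642 (minus strand) for Psmb10.
B2m: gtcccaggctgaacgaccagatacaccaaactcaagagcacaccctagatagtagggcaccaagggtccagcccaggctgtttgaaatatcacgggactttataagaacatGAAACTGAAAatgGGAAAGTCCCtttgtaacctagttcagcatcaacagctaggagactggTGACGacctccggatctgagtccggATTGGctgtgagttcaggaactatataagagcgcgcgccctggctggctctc
H2-K1: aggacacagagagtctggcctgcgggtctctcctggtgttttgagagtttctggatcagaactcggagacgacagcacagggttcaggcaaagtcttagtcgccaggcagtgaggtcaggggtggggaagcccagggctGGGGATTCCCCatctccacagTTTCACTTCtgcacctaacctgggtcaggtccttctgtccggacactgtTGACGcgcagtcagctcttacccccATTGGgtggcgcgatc
H2-Q7: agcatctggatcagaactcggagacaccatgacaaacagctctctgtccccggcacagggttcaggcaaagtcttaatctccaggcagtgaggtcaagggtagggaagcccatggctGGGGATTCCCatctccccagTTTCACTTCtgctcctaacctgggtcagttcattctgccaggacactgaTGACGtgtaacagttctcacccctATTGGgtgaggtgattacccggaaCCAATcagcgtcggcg
H2-Q2: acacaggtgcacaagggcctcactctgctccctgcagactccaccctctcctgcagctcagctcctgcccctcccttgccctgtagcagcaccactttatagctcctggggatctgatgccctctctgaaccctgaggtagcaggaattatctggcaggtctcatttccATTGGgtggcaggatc
H2-T3: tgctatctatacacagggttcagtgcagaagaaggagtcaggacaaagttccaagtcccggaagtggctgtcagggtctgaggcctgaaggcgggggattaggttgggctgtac
Psmb10: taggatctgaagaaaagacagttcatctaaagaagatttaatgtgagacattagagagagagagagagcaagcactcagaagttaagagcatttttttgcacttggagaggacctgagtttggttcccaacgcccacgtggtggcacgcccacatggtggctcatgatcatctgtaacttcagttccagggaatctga

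RefSeq entries were found for 8 of the 10 genes and for 17 of 22 class I heavy chain genes. GGGANTNNCC occurred in the windows of 3 of the 8, B2m, H2-K1 and H2-D1, against 3.44% of all 32851 promoter windows. TGACG occurred in 5 of the 8 (B2m, H2-K1, H2-D1, Tap1 and Psmb9), against 17.8% of all windows, and CCAAT in the same genes and Tapbp, against 33.8%. GAAANNGAAA was found in B2m (2.98% of all windows) and GAANNGAAA in H2-K1 and H2-D1 (6.31%). TTCNNNGAA, the letters of a STAT site, was found in Psmb8 (7.02% of all windows). The window of Psmb10 held none of these 6 motifs. Tap1 and Psmb9 are transcribed away from each other with 225 bases between their starts, so their windows share most of their sequence and the TGACG and CCAAT matches of the pair are not independent. Among the 17 heavy chain windows, GGGANTNNCC occurred in 7, GAANNGAAA in 8, TGACG in 8 and CCAAT in 14. H2-K1 and H2-D1 are in both counts. Windows of related heavy chain genes share long stretches, as those printed for H2-K1 and H2-Q7 do, so these matches are not independent either. The printed genes are a selection. H2-M2, which was highest in thymic tuft cells, held no GGGANTNNCC. Psmb6, which was lower in thymic than in SI tuft cells, held 1 match to GAANNGAAA and 2 to TGACG. Whether matches go with levels was not tested. A match is a description of letters, and binding was not measured.

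The labels were checked against marker genes. The 10 tuft markers summed to 140 to 271 CPM (counts per 1e6 counts, scaled by TMM) in SI epithelium, 14854 to 19014 in SI tuft cells and 4290 to 5294 in thymic tuft cells. Libraries held 38659882 to 73574745 gene counts, so that 3 counts corresponded to 0.0408 to 0.0776 CPM. The TMM factors were 0.883 to 0.9 in SI epithelium, 0.661 to 0.784 in SI tuft and 1.33 to 1.43 in thymic tuft libraries. The size of differences between groups depends on them. The 9 enterocyte markers summed to 17411 to 18826 CPM in SI epithelium and 33365 to 37307 in SI tuft cells, and to 265 to 559 in thymic tuft cells. The 10 thymic epithelium markers summed to 218 to 591, 21.6 to 26.9 and 1830 to 2042 CPM in the same order. Mitochondrial transcripts made up 18.6% to 23.7% of counts in SI epithelium, 24.05% to 33.5% in SI tuft cells and 4.38% to 5.97% in thymic tuft cells. The summed markers of myeloid cells, B cells and stroma were highest in the thymic group, while those of T cells overlapped between the tuft populations. The part of these markers in the results below was not tested. The 12 myeloid and dendritic markers summed to 20.5 to 25.5, 17.2 to 52.0 and 227 to 289 CPM in SI epithelium, SI tuft and thymic tuft cells, led by Lyz2 and Itgam, with Clec9a near 0 in all 4 thymic libraries. The 6 B cell markers summed to 1.80 to 2.97, 1.80 to 4.44 and 25.6 to 41.5 CPM, led by Cd79b and Pax5. The 16 T cell and thymocyte markers summed to 3.01 to 7.15, 25.3 to 36.4 and 14.3 to 52.4 CPM, led by Lck and Cd3e, and Ptcra was at 0 in all thymic libraries. The 9 fibroblast and endothelium markers summed to 3.69 to 4.47, 3.77 to 4.68 and 27.4 to 148 CPM, led by Dcn and Pdgfrb.

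Pairs of libraries shared a small part of their counts. Counts of genes typical of the thymus appeared in SI epithelium replicates 1, 2 and 3 at 0.483%, 0.533% and 0.480% of their level in thymic replicates 3, 2 and 1, and the reverse shares were 0.918%, 0.959% and 0.860%. Of the results that rest on low values in these libraries, those of H2-M2, H2-Q7, H2-T3 and Nlrc5 are also given without this share.

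Compared with SI epithelium, 8 of the 10 genes were higher in SI tuft cells and none was lower (edgeR quasi-likelihood test, adjusted p under 0.05), where 10.9% of all tested genes were higher and 11.4% lower. For all 10 every SI tuft library lay above every SI epithelium library, as for 22.8% of tested genes. Their median log2 fold change was 1.01, against -0.10 over all tested genes. In thymic tuft cells 6 were higher and 1, Psmb10, was lower than in SI tuft cells, where 28.5% and 23.1% of all tested genes were called higher and lower. The thymic libraries of 7 lay above and those of 1 below all SI tuft libraries, as for 26.3% and 24.9% of tested genes. The median was 1.07, against 0.12 over all tested genes. Against SI epithelium 9 were higher and Psmb10 was lower in thymic tuft cells, with 28.6% and 22.3% of all tested genes called, and the same 9 and 1 did not overlap (28.1% and 27.4% of tested genes). The median was 2.26 against 0.15 over all tested genes. The 3 comparisons share libraries and are not independent of each other. In sorted bulk samples a higher level in each cell and more cells with a high level cannot be told apart. With DESeq2 size factors in place of TMM the median over all genes moved from 0.12 to 0.36 for thymic against SI tuft cells and from 0.15 to 0.38 against SI epithelium, and with them the members' counts were 7 and 9 higher and 1 and 1 lower.

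**Figure D1:**
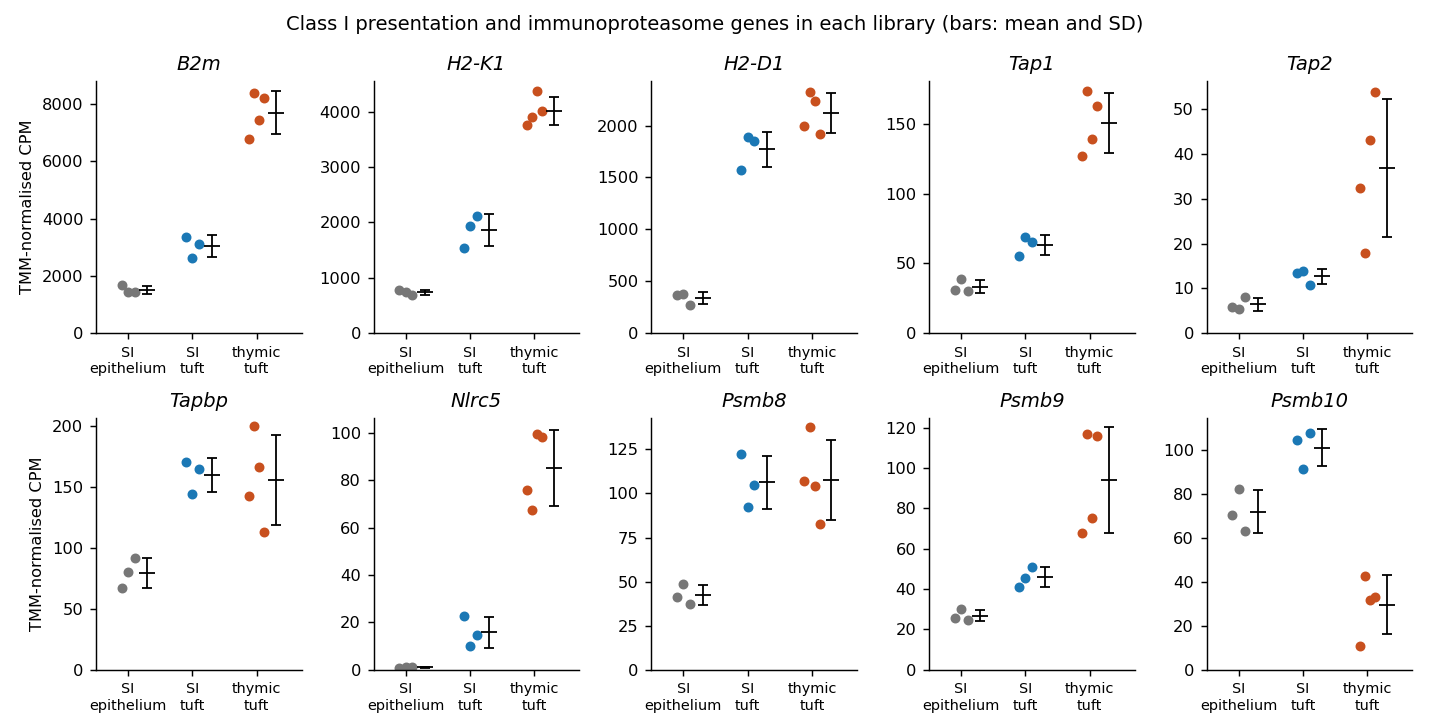
TMM-normalised CPM of each of the 10 genes (vertical axis, from 0, with its own scale per gene) in the libraries of SI epithelium, SI tuft cells and thymic tuft cells. Points are libraries and bars are the mean and SD. The levels stepped up from SI epithelium to SI tuft to thymic tuft cells without overlap for B2m, H2-K1, H2-D1, Tap1, Tap2, Nlrc5 and Psmb9, while the 4 thymic libraries of Psmb10 lie below all others.

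Beta-2 microglobulin and the classical heavy chains were the most abundant transcripts of the set. B2m, the invariant light chain (ENSMUSG00000060802, GRCm38 chromosome 2, 122147686 to 122153083), was at 1683, 1417 and 1424 CPM in the SI epithelium libraries, at 3367, 2620.0 and 3098 in SI tuft and at 6768, 8398, 7440 and 8197 in thymic tuft libraries. The lowest thymic library was above the highest SI tuft library, which in turn were all above SI epithelium. B2m rose by a log2 fold change of 1.01 (SE 0.15, adjusted p = 0.000449) in SI tuft cells over SI epithelium and by 1.35 (SE 0.14, adjusted p = 1.02e-05) in thymic over SI tuft cells.

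H2-K1 and H2-D1 encode the classical heavy chains of this strain. H2-K1 (ENSMUSG00000061232, chromosome 17, 33996017 to 34000347) was at 778, 746 and 680.0 CPM in SI epithelium, 1539.8, 1944 and 2111 in SI tuft cells and 3767, 3916, 4373 and 4008 in thymic tuft cells. It rose in nearly even log2 steps, by 1.34 (SE 0.15, adjusted p = 4.3e-05) and then 1.11 (SE 0.14, adjusted p = 4.4e-05). H2-D1 (ENSMUSG00000073411, chromosome 17, 35262730 to 35267499) was at 370.2, 378 and 268 CPM in SI epithelium, 1577, 1886 and 1852 in SI tuft cells and 1994, 2327, 2233 and 1922 in thymic tuft cells. Most of its difference lay between SI epithelium and SI tuft cells, where it rose by 2.39 (SE 0.17, adjusted p = 1.02e-06). The thymic libraries of H2-D1 were all above the SI tuft libraries, but the log2 difference of 0.26 (SE 0.15) was not called (adjusted p = 0.178). It was called with DESeq2 size factors (0.50, adjusted p = 0.0166), with the DESeq2 Wald test (0.50, adjusted p = 0.00693) and in a fit of these 2 groups (0.42, adjusted p = 0.0249).

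The ratio of the heavy chains was lowest in SI tuft cells. Per kb of transcript, H2-K1 was 2.73, 2.56 and 3.29 times H2-D1 in SI epithelium, 1.27, 1.34 and 1.48 times in SI tuft cells and 2.45, 2.19, 2.54 and 2.71 times in thymic tuft cells. SI tuft libraries lay below all others. The log2 differences were -1.06 for SI tuft cells against SI epithelium and 0.86 for thymic against SI tuft cells. The exact permutation p-values were 0.1 and 0.0571 (two-sided), which are the smallest that these group sizes allow, and 0.158 and 0.147 after adjustment over 18 ratio tests.

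The other heavy chain genes, which encode nonclassical class I molecules, split in the thymus. Of 20 on the list, 16 passed the filter on low counts, and H2-M1, H2-M9, H2-M10.1 and H2-M11 did not. In thymic tuft against SI tuft cells 11 of the 16 were higher and 4 lower, where 28.5% and 23.1% of all tested genes were called. Some of the 16 passed the filter only through the group in which they were high, so the count is a description. In SI tuft cells against SI epithelium 4 were higher and 1 lower, where 10.9% and 11.4% of all tested genes were called. The classical genes made up most of the heavy chain counts in all groups, with H2-K1 and H2-D1 together at 72.4% ± 0.600 for SI epithelium, 86.9% ± 0.675 for SI tuft cells and 78.5% ± 1.96 for thymic tuft cells (SD, n = 3, 3 and 4).

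Of the 11 that were higher in thymic than in SI tuft cells, H2-M2, H2-Q7, H2-Q5 and H2-Q6 had the 4 largest log2 differences, followed by H2-M3 (4.00), H2-T24 (2.09) and H2-T22 (2.07). H2-M2, a nonclassical heavy chain of the M region, was at 2.64, 2.61 and 3.38 CPM in SI epithelium, 0.0972, 0.272 and 0.343 in SI tuft cells and 542, 394, 366 and 352 in thymic tuft cells, a log2 difference of 10.77 (SE 0.39, adjusted p = 3.18e-09) between the tuft populations. Without the share of the thymic libraries, H2-M2 was at 0.0188, 0.149 and 0.833 CPM in SI epithelium. Its deficit in SI tuft cells relative to SI epithelium (log2 fold change -3.60, adjusted p = 1.01e-05) was then not called (-0.61, adjusted p = 0.665). H2-Q7, a gene of the Qa-2 antigen, was at 2.96, 2.74 and 2.498 CPM in SI epithelium, 10.6, 7.98 and 7.74 in SI tuft cells and 264, 284, 309.9 and 272 in thymic tuft cells. Its log2 steps were 1.68 (SE 0.17, adjusted p = 2.24e-05) and a further 5.01 (SE 0.19, adjusted p = 3.82e-09). Without the share of the thymic libraries, H2-Q7 was at 0.828, 0.934 and 1.227 CPM in SI epithelium. The steps were then 3.11 (adjusted p = 7.59e-07) and 5.08 (adjusted p = 1.83e-08), so the size of the first depends on this share. H2-Q5 rose by 4.69 (SE 0.36, adjusted p = 6.25e-07) and H2-Q6 by 4.12 (SE 0.22, adjusted p = 4.31e-08) between SI and thymic tuft cells. Stretches of 50 bases shared with another listed heavy chain made up 39.6%, 27.0% and 36.7% of the transcripts of H2-Q5, H2-Q6 and H2-Q7, so the split of reads among these 3 is uncertain, whereas for H2-M2 the shared part was 0.721%, and for H2-K1 and H2-D1 8.79% and 12.0%.

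The opposite pattern was seen in H2-T3, H2-Bl, H2-Q1 and H2-Q2. H2-T3 encodes the thymus leukaemia antigen, a ligand of CD8 alpha homodimers. It was at 90.5, 78.5 and 75.3 CPM in SI epithelium, 73.0, 100.2 and 135 in SI tuft cells and 0.790, 0.716, 1.13 and 0.190 in thymic tuft cells (log2 fold change -7.17, SE 0.46, adjusted p = 1.42e-07 against SI tuft cells). Of 48, 38 and 78 counts of H2-T3 in thymic replicates 1, 2 and 3, 5, 3 and 34 remained without the share of the SI epithelium libraries. H2-Bl (-5.33, SE 0.41, adjusted p = 5.65e-07), H2-Q1 (-4.71, SE 0.61, adjusted p = 4.7e-05) and H2-Q2 (-4.21, SE 0.35, adjusted p = 1.16e-06) were also lower in thymic than in SI tuft cells. In the intestine the libraries of SI tuft cells and SI epithelium overlapped for all 4 of these genes, and none was called. Together these 4 took 17.6% ± 0.845 of heavy chain counts in SI epithelium, 7.67% ± 0.727 in SI tuft cells and 0.137% ± 0.0467 in thymic tuft cells. H2-M2, H2-Q4, H2-Q5, H2-Q6 and H2-Q7 together took 2.23% ± 0.325, 2.05% ± 0.301 and 17.2% ± 1.99 (SD, n = 3, 3 and 4). These groupings were made after the values were seen and carry no test. The percentages include the counts shared between libraries. Of 140, 123 and 223 counts of H2-M2 in SI epithelium, 1, 7 and 55 remained without the share of the thymic libraries.

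**Figure D2:**
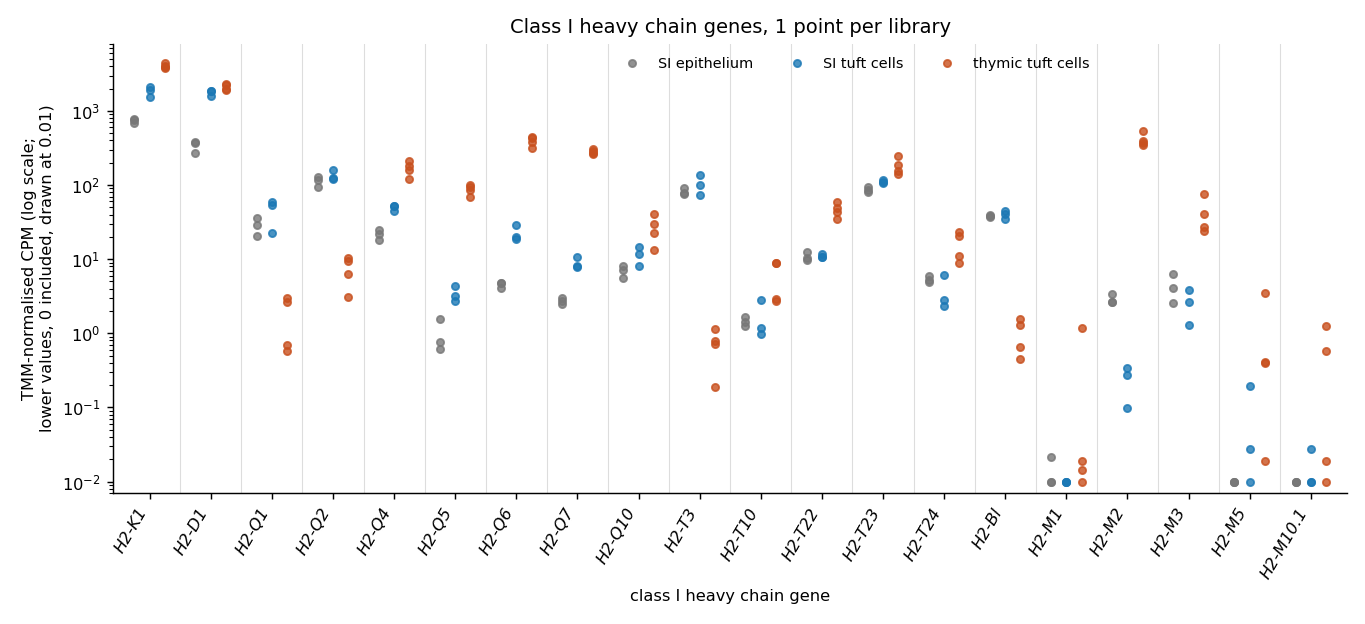
Levels of class I heavy chain genes (horizontal axis) in TMM-normalised CPM on a log axis, with 1 point per library and values under 0.01 drawn at 0.01, for genes that reached 1 CPM in a library. H2-Q5, H2-Q6, H2-Q7 and H2-M2 are highest in thymic tuft cells, while H2-Q1, H2-Q2, H2-T3 and H2-Bl are lowest there.

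Summed over the 22 listed heavy chain genes, the level was 1483 ± 139 CPM in SI epithelium, 4186 ± 521 in SI tuft cells and 7813 ± 432 in thymic tuft cells. The sum of SI tuft cells was 2.83-fold that of SI epithelium (log2 1.50, SE 0.14) and that of thymic tuft cells 1.87-fold that of SI tuft cells (log2 0.90, SE 0.13). B2m, which encodes the light chain of class I molecules, differed by 2.01-fold and 2.54-fold. Pairing of the listed chains with it was not measured.

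Of the 3 genes of peptide transport and loading, Tap1 and Tapbp were called higher in SI tuft cells over SI epithelium, and Tap1 and Tap2 in thymic over SI tuft cells. Tap1, a chain of the peptide transporter (ENSMUSG00000037321, chromosome 17, 34187553 to 34197225), was at 30.9, 38.8 and 30.4 CPM in SI epithelium, 55.5, 69.2 and 65.2 in SI tuft cells and 127, 174, 139 and 163 in thymic tuft cells. The 3 populations did not overlap. Tap1 rose by 0.92 (SE 0.18, adjusted p = 0.00304) and by a further 1.25 (SE 0.17, adjusted p = 8.66e-05). Tap2, the partner chain (ENSMUSG00000024339, chromosome 17, 34203527 to 34216321), was far lower, at 5.86, 5.31 and 8.10 CPM in SI epithelium, 13.4, 13.9 and 10.8 in SI tuft cells and 32.5, 17.9, 43.2 and 53.9 in thymic tuft cells. Its first step, 0.98 (SE 0.37), missed the threshold (adjusted p = 0.0835) although the libraries did not overlap. It was called with the DESeq2 Wald test (adjusted p = 0.0461), in a fit of these 2 groups (adjusted p = 0.00994) and without thymic replicate 2 (adjusted p = 0.0254). Its second step, 1.54 (SE 0.36, adjusted p = 0.00381), was called. Tap1 was 5.79 ± 3.71 times Tap2 per kb of transcript in thymic tuft cells, 5.90 ± 1.12 times in SI tuft cells and 6.35 ± 2.08 times in SI epithelium, and this ratio did not differ beyond its spread.

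Tapbp encodes tapasin, which holds the heavy chain at the transporter (ENSMUSG00000024308, chromosome 17, 33915899 to 33929292). It was at 67.2, 80.1 and 91.7 CPM in SI epithelium, 171, 145 and 165 in SI tuft cells and 143, 200.1, 166 and 113 in thymic tuft cells. Tapbp was higher in SI tuft cells, with a log2 difference from SI epithelium of 1.00 (SE 0.21, adjusted p = 0.00443). Both tuft populations overlapped, with a log2 difference of -0.04 (SE 0.19, adjusted p = 0.882) whose sign turned with the scaling (0.20 with DESeq2 size factors, adjusted p = 0.404). Annotated exons of Tap1 and Psmb9 overlap on opposite strands, as do those of Tap2 and Psmb8 with an antisense gene, and Tapbp overlaps Zbtb22, with no strand kept by the library kit, so reads there cannot be assigned with certainty. The same holds for other genes named below. Among them, Erap1 overlaps Cast by 834 bases, Rfxank Nr2c2ap by 1341 and Rfx5 B230398E01Rik by 1471. Psmb7 overlaps Nek6 by 405 bases and Nlrc5 a noncoding gene by 78.

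The general chaperones of the loading complex did not follow as a group. Of 8 genes for loading chaperones and peptide trimming, 5 were lower and none was higher in SI tuft cells when set against SI epithelium. Of all tested genes 11.4% were lower and 10.9% higher. The median log2 difference of the 8 was -0.73. Pdia3, the thiol oxidoreductase that tapasin binds, fell by 0.80 in log2 (SE 0.16, adjusted p = 0.00311), Hspa5, the endoplasmic reticulum chaperone BiP, fell by 0.76 (SE 0.20, adjusted p = 0.0157), and Pdia6, a protein disulfide isomerase, fell by 0.90 (SE 0.27, adjusted p = 0.0304). The call of Hspa5 was lost without SI epithelium replicate 2 or SI tuft replicate 2, that of Pdia6 without any SI epithelium library or SI tuft replicate 2 or 4, and the count of 5 fell to 2 or 3 in 5 alternatives. Canx, encoding calnexin, was at 265 to 274 CPM in SI epithelium, 147 to 177 in SI tuft and 130.2 to 175 in thymic tuft libraries, and fell by 0.80 (SE 0.14, adjusted p = 0.000602) in thymic tuft cells against SI epithelium. Erap1, the aminopeptidase that trims peptides before loading, was the gene of this list that fell at both steps. It was at 62.6, 57.6 and 46.9 CPM in SI epithelium, 35.3, 30.4 and 35.6 in SI tuft cells and 23.1, 20.5, 16.7 and 19.2 in thymic tuft cells. Its log2 steps were -0.72 (SE 0.21, adjusted p = 0.0278) and -0.76 (SE 0.20, adjusted p = 0.00631). The first of these calls was lost without SI epithelium replicates 1 or 2 or SI tuft replicate 2, 3 or 4. Between the tuft populations 1 of the 8 genes, Pdia3, was higher in the thymus and 1, Erap1, was lower. With the partner share subtracted Pdia3 differed by 0.52 (adjusted p = 0.0141). Its call was lost in 3 of 19 alternatives, with the replicate block and without SI tuft replicate 2 or 3.

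The immunoproteasome subunits did not change as a block. Psmb8 (LMP7, ENSMUSG00000024338, chromosome 17, 34197721 to 34201454) was at 41.2, 48.7 and 37.2 CPM in SI epithelium, 122, 92.1 and 105 in SI tuft cells and 107, 138, 104 and 82.6 in thymic tuft cells. It rose by 1.33 (SE 0.21, adjusted p = 0.000652) in SI tuft cells, and the tuft populations overlapped (0.02, SE 0.19, adjusted p = 0.939). Psmb9 (LMP2, ENSMUSG00000096727, chromosome 17, 34181987 to 34187764) was at 25.7, 30.0 and 24.8 CPM in SI epithelium, 41.1, 45.5 and 51.0 in SI tuft cells and 67.6, 117, 75.2 and 116 in thymic tuft cells. Its first step of 0.77 (SE 0.24, adjusted p = 0.034) was not called when any 1 of the 6 intestinal libraries was left out (adjusted p up to 0.125), and its second step of 1.03 (SE 0.23, adjusted p = 0.00233) was called.

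Psmb10 (MECL-1, ENSMUSG00000031897, chromosome 8, 105935735 to 105938444) ran the other way. It was at 70.2, 82.3 and 63.0 CPM in SI epithelium, 104, 91.2 and 107 in SI tuft cells and 10.97, 42.5, 31.6 and 33.2 in thymic tuft cells, where replicate 1 was the lowest and the thymic calls below held without it. The difference of SI tuft cells from SI epithelium, 0.49 (SE 0.36), was not called (adjusted p = 0.373), except in a fit of these 2 groups (0.50, adjusted p = 0.0167). Thymic tuft cells were below SI tuft cells (-1.77, SE 0.34, adjusted p = 0.000942) and below SI epithelium (-1.28, SE 0.34, adjusted p = 0.00729), both without overlap.

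The constitutive subunits that these 3 replace gave the other side of the balance. Psmb5, replaced by Psmb8, was at 12.7 to 16.1 CPM in SI epithelium, 14.8 to 16.1 in SI tuft cells and 4.16 to 21.3 in thymic tuft cells, with no call. Psmb6, replaced by Psmb9, was at 88.0 to 91.7 CPM in SI epithelium, 130 to 147 in SI tuft cells and 45.5 to 79.1 in thymic tuft cells, and was lower in thymic than in SI tuft cells (-1.17, SE 0.20, adjusted p = 0.000501). Psmb7, replaced by Psmb10, was at 74.2 to 106 CPM in SI epithelium, 67.5 to 71.0 in SI tuft cells and 45.6 to 76.9 in thymic tuft cells. It was lower in thymic tuft cells than in SI epithelium (-0.54, SE 0.21, adjusted p = 0.0441), a call that was lost in 15 of 19 alternatives.

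Per kb of transcript the 3 immunoproteasome subunits together were at 0.491, 0.595 and 0.402 times their constitutive counterparts in SI epithelium, 0.711, 0.665 and 0.757 times in SI tuft cells and 0.899, 1.08, 1.10 and 1.55 times in thymic tuft cells. The 3 populations did not overlap. The log2 differences were 0.54 for SI tuft cells against SI epithelium (exact permutation p = 0.1, two-sided), 0.68 for thymic against SI tuft cells (exact permutation p = 0.0571) and 1.21 for thymic tuft cells against SI epithelium (exact permutation p = 0.0571). These are the smallest p-values that the group sizes allow, and adjusted over 18 ratio tests they were 0.158, 0.147 and 0.147. With the length of all annotated exons the difference between the tuft populations was 0.37 with exact permutation p = 0.114, above the smallest p possible. Psmb9 over Psmb6 was 0.173, 0.193 and 0.161 in SI epithelium, 0.165, 0.207 and 0.226 in SI tuft cells and 0.554, 0.873, 0.971 and 1.504 in thymic tuft cells. Psmb10 over Psmb7 was 0.753, 0.981 and 0.528, then 1.37, 1.14 and 1.395, and in thymic tuft cells 0.195, 0.490, 0.411 and 0.644. Psmb8 over Psmb5 was 1.35 to 2.11, 3.43 to 4.20 and 3.58 to 14.2, and the tuft populations overlapped.

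**Figure D3:**
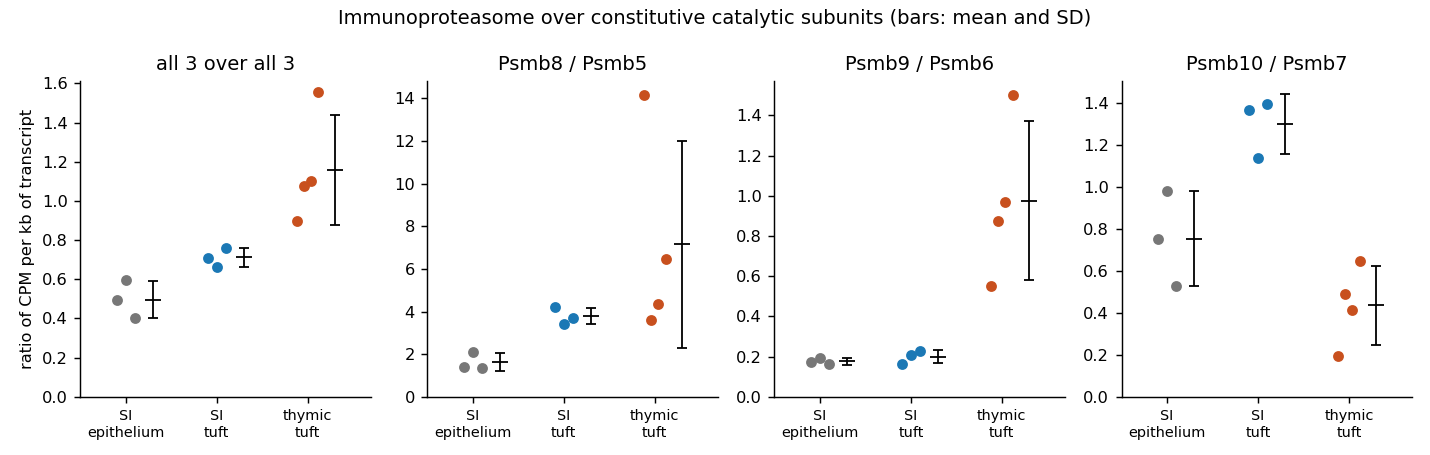
Ratio of immunoproteasome to constitutive catalytic subunits in CPM per kb of transcript (vertical axis, from 0), for all 3 together and for each pair, in the libraries of the 3 populations, with mean and SD. Psmb9 over Psmb6 is 0.554 to 1.504 in thymic tuft cells and at most 0.226 in the others, while Psmb10 over Psmb7 is highest in SI tuft cells.

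Other proteasome genes were called in both directions in SI tuft cells, and those called in thymic tuft cells were lower with the main settings. For the 20S core the shares called lower lay near those of all tested genes. Of 11 other subunits of the 20S core, none was higher in any comparison, and 1 was lower in SI tuft cells against SI epithelium, 3 in thymic against SI tuft cells and 3 in thymic tuft cells against SI epithelium, where 11.4%, 23.1% and 22.3% of all tested genes were lower. The count between the tuft populations was 0 with DESeq2 size factors and in the fit of 2 groups, and 6 without thymic replicate 2. Psmb2 fell by 0.80 (SE 0.19, adjusted p = 0.0101) in SI tuft cells against SI epithelium. Of 9 genes for 20S assembly and activators, 2 rose in SI tuft cells over SI epithelium, where 10.9% of all tested genes were higher. The 2 were Psmg4, an assembly chaperone (1.82, SE 0.41, adjusted p = 0.00705), and Pomp, the maturation protein used in immunoproteasome assembly (0.80, SE 0.18, adjusted p = 0.00645). In thymic against SI tuft cells 4 of the 9 were lower, against 23.1% of all tested genes. Pomp went from 191 to 252 CPM in SI tuft to 69.6 to 96.5 in thymic tuft libraries (-1.30, SE 0.16, adjusted p = 4.05e-05). Psme1, a chain of the PA28 activator, was at 337 to 603 CPM in SI tuft and 111 to 288 in thymic tuft libraries (-1.29, SE 0.28, adjusted p = 0.00239). Of 17 genes of the 19S regulatory particle, 2 rose in SI tuft cells over SI epithelium, a share near the 10.9% of all tested genes. They were Psmd4, a ubiquitin receptor, by 0.89 (SE 0.19, adjusted p = 0.00572) and Psmc5, an ATPase subunit, by 0.53 (SE 0.15, adjusted p = 0.0223, lost in 8 of 19 alternatives). In thymic against SI tuft cells 6 of the 17 were lower, against 23.1% of all tested genes, with Psmd4 at -1.11 (SE 0.18, adjusted p = 0.000269). The 6 became 2 with DESeq2 size factors and in the fit of 2 groups, and 3 with the DESeq2 Wald test.

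Nlrc5, the class I transactivator (ENSMUSG00000074151, chromosome 8, 94434356 to 94527272), had the largest fold changes of the 10 genes in each comparison. It was at 0.791, 1.32 and 0.999 CPM in SI epithelium, 22.9, 9.91 and 14.7 in SI tuft cells and 76.0, 67.7, 99.7 and 98.3 in thymic tuft cells, so that the populations did not overlap. Nlrc5 increased by 3.93 (SE 0.35, adjusted p = 6.93e-06) in SI tuft cells over SI epithelium, by 2.43 (SE 0.31, adjusted p = 4.34e-05) in thymic over SI tuft cells and by 6.37 (SE 0.38, adjusted p = 9.67e-08) in thymic tuft cells over SI epithelium. The SI epithelium values were 42, 62 and 66 counts, of which 6, 41 and 41 remained without the share of the thymic libraries (0.113, 0.870 and 0.621 CPM). The fold changes were then 4.87 (adjusted p = 7.45e-05), 2.50 (adjusted p = 0.00101) and 7.37 (adjusted p = 1.75e-06). SI epithelium replicate 3 also held more tuft transcripts than replicates 1 and 2 (Trpm5 at 71.9 CPM against 32.8 and 30.5), and without it the Nlrc5 call stayed in all comparisons.

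**Figure D4:**
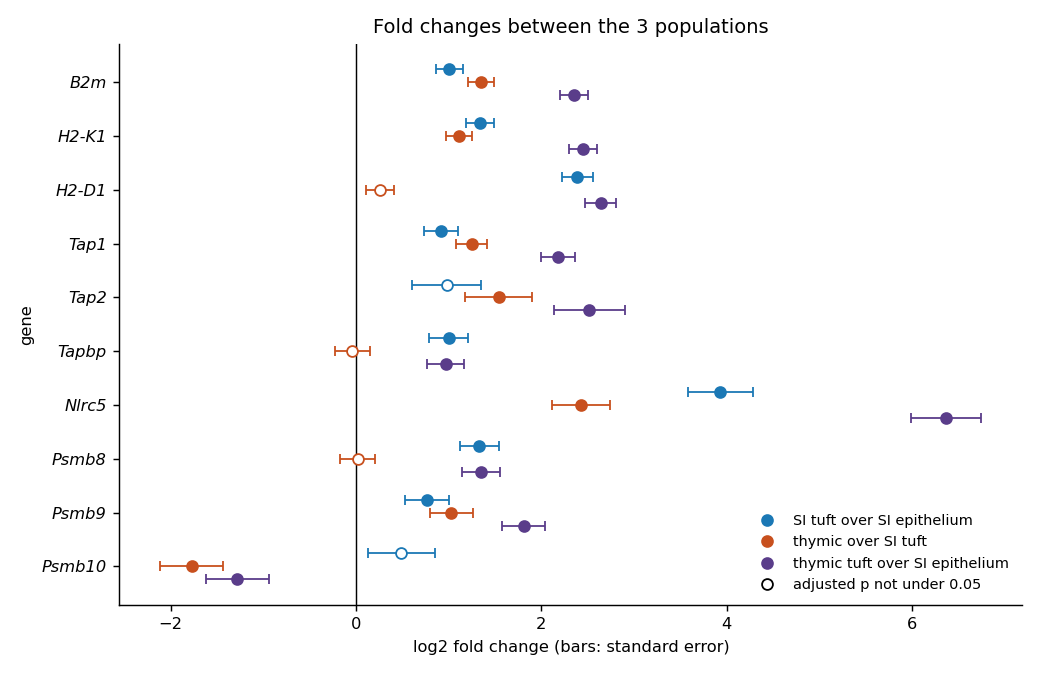
Log2 fold change (horizontal axis) with its standard error for each of the 10 genes in the 3 comparisons. Filled points had an adjusted p under 0.05 and open points did not. Nlrc5 lies farthest to the right and only Psmb10 is called below 0.

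Per kb of the main transcript, the order of levels was B2m, H2-K1 and H2-D1 in each population. In SI epithelium they were at 1754, 454 and 161 CPM per kb, in SI tuft cells at 3521, 1152 and 843 and in thymic tuft cells at 8954, 2480.5 and 1008, with no overlap between neighbours. Below these, Psmb10 had the highest mean in SI epithelium (54.8 CPM per kb) and SI tuft cells (77.0). In SI tuft cells it overlapped with Psmb8 (69.59 to 81.92 against 56.56 to 75.15). In thymic tuft cells Psmb9 (69.5), Psmb8 (66.2), Tapbp (53.7) and Tap1 (51.1) overlapped one another and all lay above Psmb10 (22.6). Nlrc5 (0.137 and 2.09) and Tap2 (1.87 and 3.68) were the lowest in both intestinal groups, and in thymic tuft cells both (11.3 and 10.7) overlapped with each other and with Psmb10. These orders depend on the length used. All annotated exons against the main transcript span 2938 against 1619 bases for H2-K1 and 2579 against 2102 for H2-D1. They span 3381 against 1628 for Psmb8, 3660 against 1352 for Psmb9 and 1705 against 1311 for Psmb10.

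Genes that act on class I promoters were mixed. Of 18 regulators, 3 were higher and 4 lower in SI tuft cells when set against SI epithelium (median log2 difference -0.06). Of all tested genes 10.9% were higher and 11.4% lower. Stat2, an interferon signal transducer, was at 82.7, 94.3 and 89.2 CPM in SI epithelium, 294, 341 and 339 in SI tuft cells and 148, 127, 117 and 149 in thymic tuft cells. It rose by 1.87 (SE 0.16, adjusted p = 3.57e-06) and fell again by 1.26 (SE 0.14, adjusted p = 1.29e-05) between SI and thymic tuft cells. Irf9, the DNA-binding partner of STAT2, rose by 1.65 (SE 0.24, adjusted p = 0.000352) in SI tuft cells and was lower by the thymic comparison (-0.99, SE 0.22, adjusted p = 0.00235). Irf8, Creb1, Nfkb1 and Atf1 were the 4 that were lower in SI tuft cells, and Irf8 fell most, by 1.13 (SE 0.23, adjusted p = 0.00343). The calls of Creb1, Nfkb1 and Atf1 were lost in 6, 7 and 5 of 19 alternatives, and the count of 4 was 1 or 2 without a filter and when any 1 of the 6 intestinal libraries was left out.

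Between the tuft populations 8 of the 18 regulators were higher in the thymus and 4 were lower, where 28.5% and 23.1% of all tested genes were called. Nfkb1, a subunit of NF-kB, was at 23.04, 36.0 and 37.0 CPM in SI tuft cells and 125, 119, 131 and 169.5 in thymic tuft cells (2.09, SE 0.21, adjusted p = 6.49e-06), and Rela rose by 1.36 (SE 0.20, adjusted p = 0.000159). The feedback inhibitors of cytokine signalling Socs1 (3.19, SE 0.49, adjusted p = 0.000182) and Socs3 (2.60, SE 0.35, adjusted p = 6.23e-05) were higher in thymic tuft cells. Within the RFX complex, through which NLRC5 reaches DNA, 1 subunit was called higher and 1 lower. Rfx5 rose by 1.13 (SE 0.30, adjusted p = 0.008), Rfxank was at 37.1, 48.9 and 43.6 CPM in SI tuft and 9.70, 9.18, 10.4 and 8.33 in thymic tuft libraries (-2.20, SE 0.21, adjusted p = 3.4e-06), and Rfxap, at 14.5 to 41.2 CPM in thymic tuft cells, was not called.

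Genes of the interferon receptors were called in both directions. Of 9 receptor and kinase genes, 4 rose and 1 fell in SI tuft cells over SI epithelium, where 10.9% and 11.4% of all tested genes were called. Ifnar2, a chain of the type I interferon receptor, was at 10.2, 10.4 and 8.63 CPM in SI epithelium, 37.9, 40.9 and 43.5 in SI tuft cells and 47.0, 56.8, 80.9 and 54.4 in thymic tuft cells, and rose by 2.07 (SE 0.24, adjusted p = 5.14e-05) in SI tuft cells. Its further 0.55 in thymic tuft cells (SE 0.21, adjusted p = 0.0473) was lost in 9 of 19 alternatives. Ifnar1, the partner chain, rose by 0.83 (SE 0.20, adjusted p = 0.0114) in SI tuft cells, a call lost without SI epithelium replicate 1 or SI tuft replicate 2, and was not called between the tuft populations (-0.27, SE 0.19, adjusted p = 0.255). Il10rb, shared by the type III interferon receptor, rose by 1.51 (SE 0.33, adjusted p = 0.00547) in SI tuft cells. Ifngr1, the ligand-binding chain of the interferon gamma receptor, fell at each step. It was at 156, 126 and 126 CPM in SI epithelium, 58.8, 66.4 and 63.0 in SI tuft cells and 17.9, 32.0, 22.9 and 22.7 in thymic tuft cells (-1.11, SE 0.21, adjusted p = 0.00262, then -1.39, SE 0.20, adjusted p = 0.0001). Its partner chain Ifngr2 was called at neither step (-0.27, SE 0.19, adjusted p = 0.351, then -0.21, SE 0.18, adjusted p = 0.359). Ifnlr1, the specific chain of the type III receptor, was not called in SI tuft cells over SI epithelium (1.03, SE 0.37, adjusted p = 0.0677). It was at 58.9 to 84.2 CPM in SI tuft and 7.98 to 26.8 in thymic tuft cells (-1.84, SE 0.34, adjusted p = 0.000829).

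**Figure D5:**
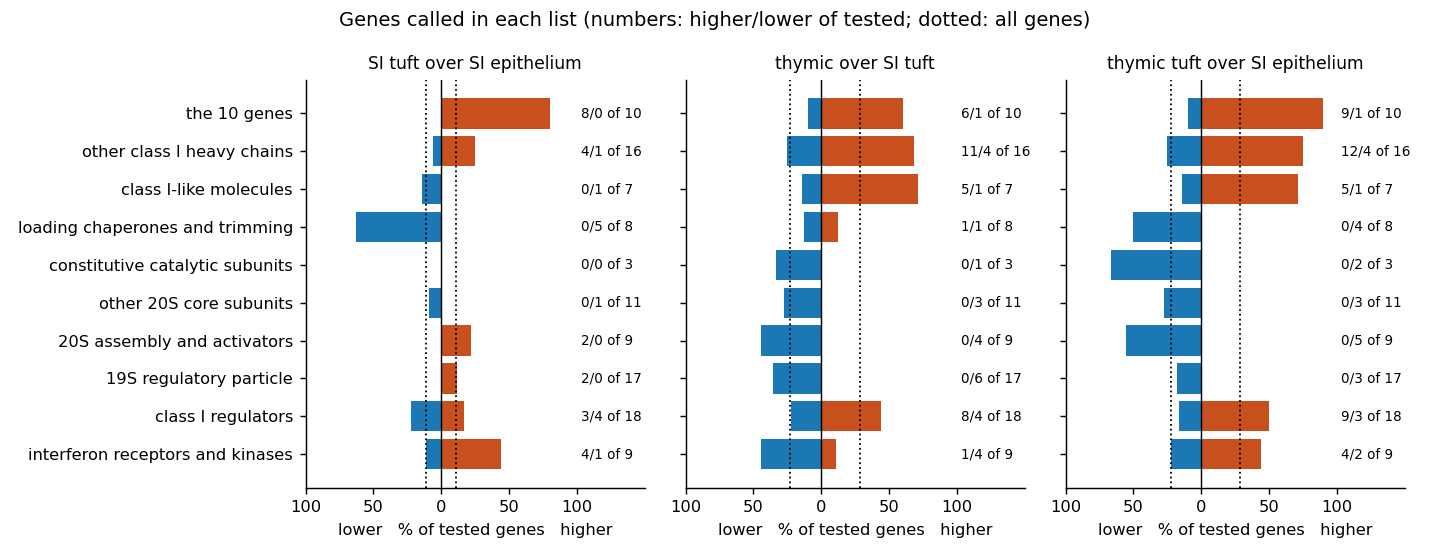
Share of the tested genes of each list called higher (right) or lower (left) by edgeR in the 3 comparisons, with the counts beside the bars and dotted lines at the share over all tested genes. The 10 genes are called mostly higher (8, 6 and 9), whereas the 20S core, its assembly factors and the 19S particle have no gene called higher in thymic tuft cells with these settings (up to 2 of the 19S particle and 1 of the assembly factors in the alternatives).

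Over the 109 listed pathway genes other than the 10, 102 of which were tested, 15 were higher and 13 lower in SI tuft cells when set against SI epithelium (median log2 difference 0.06). In thymic against SI tuft cells 30 were higher and 28 lower, with a median of -0.15. These shares lie near those of all tested genes.

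The genes whose pattern over the 10 libraries was most like the mean of the 10 genes were found by the root mean square difference of centred log2 CPM, among 9340 protein-coding genes. Gpcpd1, a phosphodiesterase of lipid metabolism, differed by 0.11, Ostf1 by 0.12, Ehf, an ETS transcription factor of epithelia, by 0.14, 4930539E08Rik by 0.15 and Ssh1, a phosphatase of cofilin, by 0.17, where the median candidate differed by 1.19. Ehf, for example, was at 145 ± 7.28 CPM in SI epithelium, 400.3 ± 42.0 in SI tuft cells and 703 ± 42.1 in thymic tuft cells (SD, n = 3, 3 and 4). Of the 10 genes themselves H2-K1 was nearest to their mean (0.24), and Psmb10 (1.59) and Nlrc5 (1.78) were farthest from it.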

How the data were processed

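The authors deposited 1 table of raw counts per gene for each of the 10 libraries. Per the submitters' processing notes STAR, GRCm38 and DESeq2 were used, without versions. Per the labels' protocols, poly(A) RNA was amplified with the NuGEN Ovation V2 kit and made into libraries with Nextera XT, and no step keeps the strand. The authors sorted 4 replicates per population and discarded 1 SI tuft and 1 SI epithelium replicate for quality, according to the design text. Symbols, coordinates and transcript lengths came from GENCODE M21 (GRCm38), where 42462 of 43432 identifiers were found, and promoter sequences from RefSeq (GRCm38.p6).

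Counts were kept with filterByExpr (minimum count 10, total 15, smallest group 3), scaled by TMM and tested with edgeR 4.0.16 (R 4.3.3) by the quasi-likelihood method over all 10 libraries, with Benjamini-Hochberg adjustment over 19281 genes and calls under 0.05. The procedure was tested on simulated data in which all groups had the same spread for a gene and few genes were changed. For SI tuft cells against SI epithelium, thymic against SI tuft cells and thymic tuft cells against SI epithelium, it recovered 13%, 15% and 21% of 2-fold changes. It recovered 77%, 86% and 85% of 4-fold changes, and 7.22%, 7.34% and 5.36% of its calls were false. These rates hold for the simulated setting and may differ for the real libraries, where many more genes were called. There the spread was unequal, with a biological coefficient of variation of 0.262 in SI epithelium, 0.489 in SI tuft cells and 0.781 in thymic tuft cells. A difference of about 2-fold that was not called may have been missed. Ratios used exact permutation tests in SciPy. Depth was 38659882 to 73574745 counts, and floors of 3 counts cover counting error only. Cross-library shares were fitted over 221 to 241 genes typical of thymic libraries (11 for the reverse).

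Alternatives were DESeq2 1.42.0 (size factors, Wald test), upper quartile scaling, mitochondrial transcripts removed, no filter, 10 CPM in 3 libraries, 2 groups only, a replicate block, subtraction of the partner library's share and each library left out; all-exon lengths were chosen after seeing the data. The 10 genes and all gene lists were chosen with earlier results of these data known. Named by rule were the 10 genes, Psmb5, Psmb6 and Psmb7, up to 3 called genes of each list per direction and comparison with at least 10 CPM by fold change, the 2 most abundant markers of each other cell type and the 5 most similar genes. H2-Q2, H2-M3, H2-T22, H2-T24, Ifngr2, Rela, Rfx5, Rfxap, Cd1d1, Psmb11 and the interferon genes under 10 CPM were named after their values were seen. The values of 1 gene that the rule covers are not reported here.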

Additional observations from a re-analysis of the deposited data

Results flagged for a closer look

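Of 88 values examined across the 4 thymic tuft libraries, 4 held a library far from the other 3, and chance alone flags about 1 in 20 groups. Tap1 over Tap2 per kb of transcript was 11.32 in replicate 2 and 3.532 to 4.555 in the others, replicate 2 being the library with the lowest Tap2 and the highest Tap1. Pdia6 was at 47.01 CPM in replicate 4 against 89.88 to 94.58 in the others. Psmd12, a subunit of the 19S particle, was at 30.26 CPM in replicate 2 against 46.83 to 50.18 in the others. Cd3e, a T cell marker, was at 4.898 CPM in replicate 3 and 0.3783 to 0.7538 in the others.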

How the results depend on the processing

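Over 19 alternatives the number of the 10 genes called higher stayed at 7 to 10 for SI tuft cells against SI epithelium, 6 to 7 for thymic against SI tuft cells and 9 for thymic tuft cells against SI epithelium, and the number called lower at 0, 1 and 1. No called member changed sign. The uncalled difference of Tapbp between the tuft populations became 0.20 with DESeq2 size factors and with the DESeq2 Wald test, 0.08 with upper quartile scaling and with the filter of 10 CPM, 0.11 in the fit of 2 groups and 0.03 with the partner share subtracted, and lay between -0.17 and 0.09 with libraries left out. That of Psmb8 lay between -0.11 and 0.14 with libraries left out. Psmb5 in SI tuft cells against SI epithelium (0.08) became -0.07 with the replicate block and lay between -0.02 and 0.15 with libraries left out, and Psmb7 between the tuft populations became 0.04 with DESeq2 size factors and the Wald test. With the length of all annotated exons, chosen after seeing the data, the log2 ratio of immunoproteasome to constitutive subunits differed by 0.37 (exact permutation p = 0.114 in place of 0.0571) between the tuft populations and by 0.82 between thymic tuft cells and SI epithelium, since these lengths differ from those of the main transcripts.

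Among 1368 counts of other lists over the alternatives, 148 differed by over 1.5 times, mostly counts under 6. Of the 109 pathway genes, 24 in place of 15 were higher in SI tuft cells against SI epithelium in the fit of 2 groups, and 6 to 8 in place of 13 were lower with SI epithelium replicates 1 or 2 or SI tuft replicates 2 or 4 left out. Between the tuft populations 17 in place of 28 were lower in the thymus in the fit of 2 groups, and 16 (size factors) or 17 (Wald test) in place of 27 were lower than in SI epithelium with DESeq2. Same-numbered libraries deviated together with correlations of -0.041 to 0.102 and were not taken as pairs. With the replicate number as a block, 7, 6 and 9 of the 10 genes were higher and 0, 1 and 1 lower. Psmb9 in SI tuft cells (0.58, adjusted p = 0.138) was then the only member call lost. The spread within groups was unequal, with a biological coefficient of variation of 0.262 in SI epithelium, 0.489 in SI tuft cells and 0.781 in thymic tuft cells. The main fit shares 1 estimate among them. In the fit of the 2 intestinal groups 3475 genes in place of 2101 were called higher in SI tuft cells. With 3 or 4 libraries a group, small differences such as those of Tapbp and Psmb8 cannot be resolved, and at 3 counts the floor is 0.0408 to 0.0776 CPM.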

Other observations

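Class I-like molecules, which present lipids or metabolites or carry other ligands, also differed between the tuft populations. Of 7 listed genes 5 were higher and 1 lower in thymic than in SI tuft cells, against 28.5% and 23.1% of all tested genes. However, several of the 7 passed the filter on low counts only through the thymic libraries. Mr1, which presents vitamin B metabolites to MAIT cells, was at 13.2, 19.8, 21.3 and 38.9 CPM in thymic tuft cells and at most 0.535 CPM in any intestinal library, and passed the filter only through the thymic libraries. Cd1d1, which presents lipids to NKT cells, was at 3.55, 7.07, 11.8 and 5.23 CPM in thymic tuft cells and at most 0.433 CPM in the intestine. Fcgrt, the neonatal Fc receptor, ran the other way, from 13.5 to 20.96 CPM in SI tuft cells to 1.62 to 3.17 CPM in thymic tuft cells (-2.89, SE 0.36, adjusted p = 3.88e-05). The proteins of these 3 genes pair with B2m.

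Psmb11, the catalytic subunit of the thymoproteasome of cortical thymic epithelium, was at 3.36, 1.43, 0.694 and 4.11 CPM in thymic tuft cells, and in the intestine it was above 0 in 1 library (0.170 CPM). Transcripts of interferon ligands were scarce in the thymic libraries, with at most 2.72 CPM of Ifng, 1.97 CPM of Ifnl2 and 1.60 CPM of Ifnl3 in a library.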
